A study of Mus musculus with 16 samples.

Results

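Untreated E14Tg2A cells were compared between day 6 and day 4 of culture. E14Tg2A is an established mouse embryonic stem (ES) cell line, labelled WT in genotype, and the comparison used 4 of the 16 samples of the series: the control libraries A and B of day 6 against the control libraries A and B of day 4. The 4 samples were taken by their titles. The comparison itself and the 50 gene lists used below were chosen with earlier results of these data known. The cells were kept without nickel (0 µM) in DMEM with serum, leukemia inhibitory factor (LIF) and 1-thioglycerol, and were passaged every 2 days, after routine culture on gelatin in a clonal-grade ES medium. In parallel, 3 further pairs of groups received 100, 150 or 200 µM NiCl2 for the same 4 or 6 days, with 2 libraries per group. RNA was read after poly(A)-based stranded library preparation. All cells come from 1 line, and nothing in the labels says whether libraries A and B came from separate cultures. Each group holds 1 deposited value per gene, made by the authors from both of its libraries, so the comparison has no replicate check and no test. The labels also do not say how the harvests of day 4 and day 6 were arranged, so the time in culture and the handling of a harvest cannot be told apart.

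Mouse ES cells self-renew under LIF, which acts through STAT3, while autocrine FGF4 acting through ERK prepares them to leave the naive state. In serum with LIF the cells are known to be a mixture, in which cells high in naive factors such as Nanog coexist with cells that begin to express formative genes such as Otx2 or primitive endoderm genes. WNT signalling, with its feedback target Axin2, supports the naive state. In such bulk RNA, a smaller share of cells of a type and less RNA per cell cannot be told apart.

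Most genes of the untreated cells differed little between the days. The tables list 26239 genes, of which 11726 had a mean RPKM (reads on a gene divided by its transcript length and by library depth) of at least 1 over both days. Ratios were taken as the log2 of day 6 over day 4 after adding 0.1 to each RPKM, which understates the change of low genes. The median log2 ratio was 0.01, the middle 50% of genes lay between -0.11 and 0.11, and 82.5% of genes differed by less than 1.2-fold. At 1.5-fold or more, 168 genes were higher (1.43%) and 218 were lower (1.86%) on day 6, 386 in all (3.29%). At 2-fold or more, 37 were higher and 41 lower (0.665%).

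**Figure D1:**
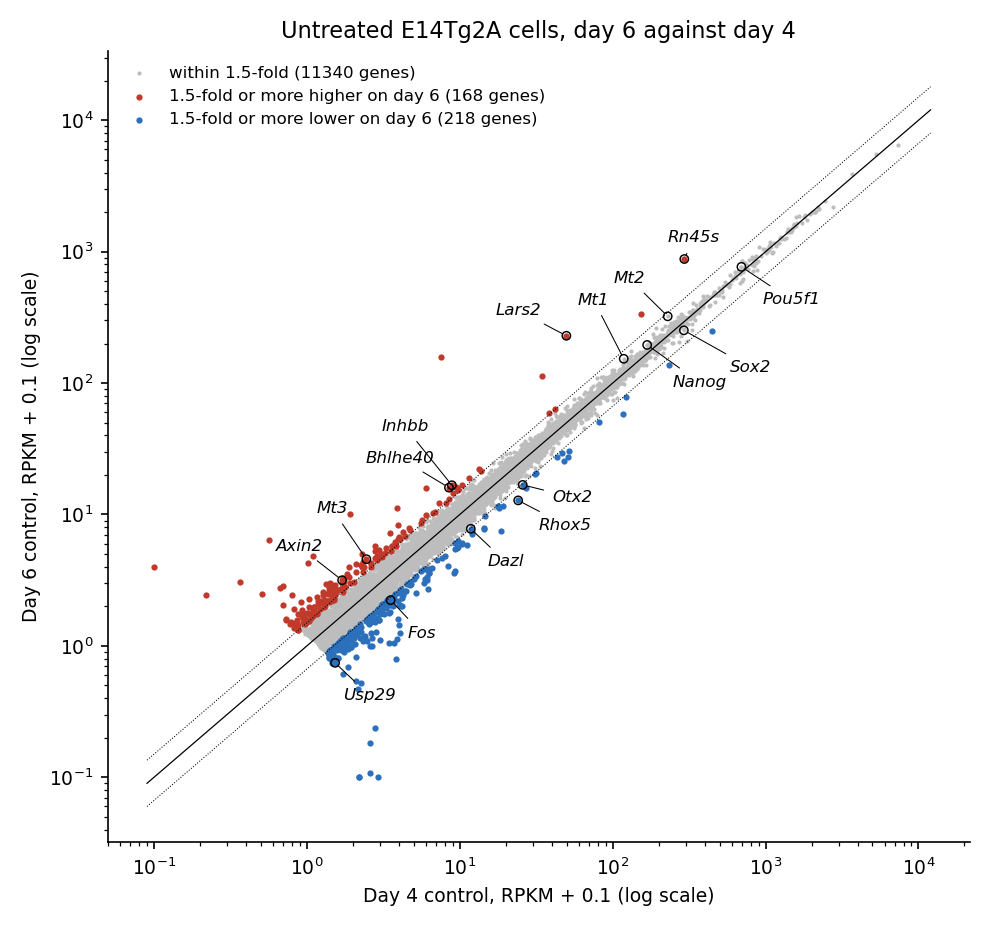
RPKM + 0.1 of the 11726 tested genes in untreated cells on day 4 (x axis) and day 6 (y axis), both on log scales, with the line of equality and dotted lines at 1.5-fold. Each point is 1 gene and 1 deposited value per day. Most genes lie on the diagonal, the 386 coloured genes are mostly at low RPKM, and Rn45s and Lars2 stand above the diagonal at high RPKM.

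Most of the genes past the fold were weakly expressed. Of the 386, 307 had a mean RPKM under 5, and at 5 or more only 79 of 8099 genes passed (0.975%). Small RNA genes, whose short length gives few reads, made up 69 of the 386 and 158 of the 11726 tested. Genes that share part of their span with a neighbour on their own strand, where reads cannot be assigned with certainty, made up 84 of the 386 and 967 of all tested. Among genes named below without that remark this also holds for Dnmt1, mt-Nd1, Igf2, Rplp2-ps1 and Snord19. The kit keeps strand but the counting is not stated to use it, so the values of Dnmt3l, Sycp3, Col4a1, Hnf4a, Gata6, Ccnd1, Cry2, Mtf1, Slc30a1, Mir6236, mt-Co1, Peg3, Cdkn2b, Rec114, Ano3, Ttr and Tagln, which overlap a gene on the other strand, carry the same doubt. The 2 control libraries of day 4 held an estimated 43.2 and 51.1 megareads and those of day 6 held 58.8 and 70.8 megareads, as read from the step between low RPKM values of genes with 1 exon. Over all 8 groups the estimates ran from 34.1 to 76.8 megareads. At these depths an RPKM of 1 stands for about 189 reads on day 4 and 259 on day 6 over a 2000-base transcript, and for 9.43 and 13.0 reads over 100 bases. As a scale of error, the standard error implied by the authors' log2 fold changes and p-values of nickel against control was taken for each gene. It covers the spread between libraries of a day but not a difference between harvests, and its median was 0.15 on the log2 scale. With the added demand of 2 implied errors, 161 genes were past the fold, 76 higher (0.648%) and 85 lower (0.725%), or 1.37% in all. The value after ± below is this implied error. Single genes were named by a fixed rule, and the others in the text, such as Gbx2, Zic2, Sycp3, Tfap2c and Porcn, were picked after their values were seen.

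The cells carried the markers of ES cells on both days. All 12 ES cell markers had an RPKM above 1, and none was past the fold. Pou5f1, which encodes the pluripotency factor Oct4, was at an RPKM of 695 on day 4 and 767 on day 6, a log2 ratio of 0.14 ± 0.08. E14Tg2A is known as a line without functional Hprt, the purine salvage enzyme, and Hprt was at an RPKM of 0.159 on day 4 and 0.335 on day 6. The liver transcript albumin (Alb) was listed at 0 on day 4 and had an RPKM of 1.97 on day 6, and the liver markers are described at the end with the other cell type markers.

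No pluripotency gene was past the fold. Of 28 core and naive factors, all above the filter, 0 were past the fold in either direction, and their median log2 ratio was 0.05 beside 0.01 over all tested genes. Nanog, which locks cells in the naive state, had an RPKM of 168 on day 4 and 195 on day 6 (log2 ratio 0.21 ± 0.07). The other core factor Sox2 was at 292 and 252 (-0.21 ± 0.08), in a span shared with another gene of its strand. Zfp42, the naive marker Rex1, was at 348 and 300 (-0.21 ± 0.07), Klf4 at 64.0 and 66.2 (0.05 ± 0.08) and Esrrb at 191 and 202 (0.08 ± 0.07). The highest ratio of the list was that of Gbx2, a homeobox gene downstream of LIF, at 11.5 on day 4 and 16.6 on day 6 (0.53 ± 0.16). In the 3 nickel pairs Gbx2 had log2 ratios of -0.12, -0.09 and -0.19 at 100, 150 and 200 µM. The lowest ratio was that of Dppa3, a maternal and germ cell factor, at 5.78 and 4.57 (-0.33 ± 0.36). The LIF-STAT3 list gave the same picture, with 0 of 15 tested members past the fold and a median of 0.05. Its feedback inhibitor Socs3 was at 66.1 and 70.4 (0.09 ± 0.09) and the STAT3 target Pim3 at 101 and 104 (0.04 ± 0.08).

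Otx2 was lower on day 6. This transcription factor, which directs naive cells to the formative state, had an RPKM of 25.7 on day 4 and 16.7 on day 6, 1.54-fold lower (log2 ratio -0.62 ± 0.14). In nickel it went from 21.3 to 15.2 at 100 µM, from 23.7 to 18 at 150 µM and from 25.1 to 24.5 at 200 µM, so the size of the day ratio was smaller at each dose (-0.48, -0.39 and -0.03). Otx2 was the only one of 15 tested primed and formative genes past the fold (6.67%, beside 3.29% of all tested genes). Zic2, a zinc-finger factor of the primed state, was at 10.7 and 7.74 (-0.46 ± 0.17), with ratios of -0.70, -0.30 and -0.24 in nickel. Fgf5, the classical primed marker, stayed below the filter at 0.340 and 0.0833. The Nodal antagonists Lefty1 and Lefty2 were at 120 and 125 (0.06 ± 0.09) and at 92.0 and 74.2 (-0.31 ± 0.09). Over the Nodal pathway, 0 of 16 tested genes were past the fold (median 0.06).

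None of 17 DNA methylation genes was past the fold, and their median was -0.04. The de novo methyltransferase gene Dnmt3b was at an RPKM of 56.4 on day 4 and 54.3 on day 6 (-0.05 ± 0.09). Dnmt3l, which encodes the catalytically inactive cofactor of the de novo enzymes, was at 214 and 168 (-0.35 ± 0.08), under the 1.5-fold rule but more than 4 implied errors from 0. In the nickel pairs its ratio was -0.49, -0.43 and -0.32. The maintenance pair Dnmt1 and Uhrf1 was at 77.4 and 75.4 and at 110 and 117.

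Of 38 germline genes 30 were tested and 4 were past the fold, all lower on day 6, beside 1.86% of all tested genes. The median was -0.26, and 24 of the 30 had a ratio below 0, beside 47.4% of all tested genes. The homeobox gene Rhox5, on the X chromosome (chrX:37754608-37808878, GRCm38, plus strand), had an RPKM of 24.0 on day 4 and 12.7 on day 6, 1.88-fold lower (-0.91 ± 0.19). It went from 25.4 to 9.85 at 100 µM nickel, from 25.6 to 11.1 at 150 µM and from 28.4 to 14.4 at 200 µM. The 4 day 4 groups thus all lay above the 4 day 6 groups, with ratios of -1.36, -1.20 and -0.97 in nickel. Dazl, an RNA-binding protein of germ cells, was at 11.7 and 7.68 (-0.60 ± 0.16), with ratios of -0.67, -0.79 and 0.32 in nickel, the last of the other sign. Dpep3, a dipeptidase gene active in testis, was at 2.30 and 1.02 (-1.10 ± 0.39). Rhox9, from the same X-linked cluster as Rhox5, was at 1.98 and 1.11 (-0.78 ± 0.54), less than 2 implied errors. The highest ratio was that of Sycp3, a component of the synaptonemal complex of meiosis, at 26.3 and 34.1 (0.37 ± 0.14), with ratios of 0.69, 0.63 and 0.54 in nickel. The median of the list in nickel was -0.03, -0.22 and -0.02 at the 3 doses.

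All 12 tested primitive endoderm genes had a ratio below 0. Their median was -0.31, and it was -0.32, -0.30 and -0.45 in the 100, 150 and 200 µM pairs, beside medians over all tested genes of 0.04, -0.05 and 0.03. Only Rhox5, which is also on the germline list, was past the fold. The basement membrane genes of this lineage were close together: Sparc was at 62.3 on day 4 and 49.5 on day 6 (-0.33 ± 0.08), Lama1 at 11.9 and 9.61 (-0.31 ± 0.10), Lamc1 at 70.7 and 59.5 (-0.25 ± 0.08) and Col4a1 at 9.31 and 7.43 (-0.32 ± 0.12). These genes encode an extracellular matrix glycoprotein, laminin chains and a type IV collagen chain. The transcription factor Hnf4a was at 2.68 and 2.14 (-0.31 ± 0.29). The factors that specify primitive endoderm were below the filter on both days, Gata6 at 0.839 and 0.647, Gata4 at 0.992 and 0.947 and Sox17 at 0.284 and 0.210. The wider extracellular matrix list, which also holds these laminins and collagens, had 0 of 24 tested genes past the fold and a median of -0.10, with 19 of the 24 below 0.

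Genes of other lineages were seldom past the fold. In the trophectoderm list 0 of 15 tested genes were (median 0.12). Tfap2c, an AP-2 transcription factor gene also active in germ cells, came close to it, at 19.8 on day 4 and 13.2 on day 6 (-0.58 ± 0.12), with ratios of -0.34, -0.33 and -0.12 in nickel. The keratin gene Krt8 was at 2.15 and 3.11 (0.51 ± 0.28), with ratios of 0.71, 0.56 and 0.63, and the P-cadherin gene Cdh3 at 10.9 and 8.41 (-0.37 ± 0.14). Its defining factor Cdx2 was listed at 0 on day 4 and at 0.0277 on day 6. Of 25 genes of the primitive streak and mesoderm, 2 passed the filter and neither was past the fold, and T (brachyury) was at 0.112 and 0.165. Of 27 neural genes 7 passed the filter, with 0 past the fold, 6 above 0 and a median of 0.23. The neuronal tubulin gene Tubb3 was at 29.6 and 37.1 (0.32 ± 0.13). Of 39 Hox genes only Hoxc13 passed the filter, at 1.51 and 1.72. The genes of the rare 2-cell-like state were level, with Zscan4d at 7.75 and 7.43 (-0.06 ± 0.14) and Zscan4a at 7.08 and 7.33 (0.05 ± 0.18), near-identical copies whose reads can be split between them. Of 11 tested genes of this list only Tmem92 was past the fold (9.09%, beside 3.29% of all tested genes). It was at 0.856 and 1.40 (0.65 ± 0.31).

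**Figure D2:**
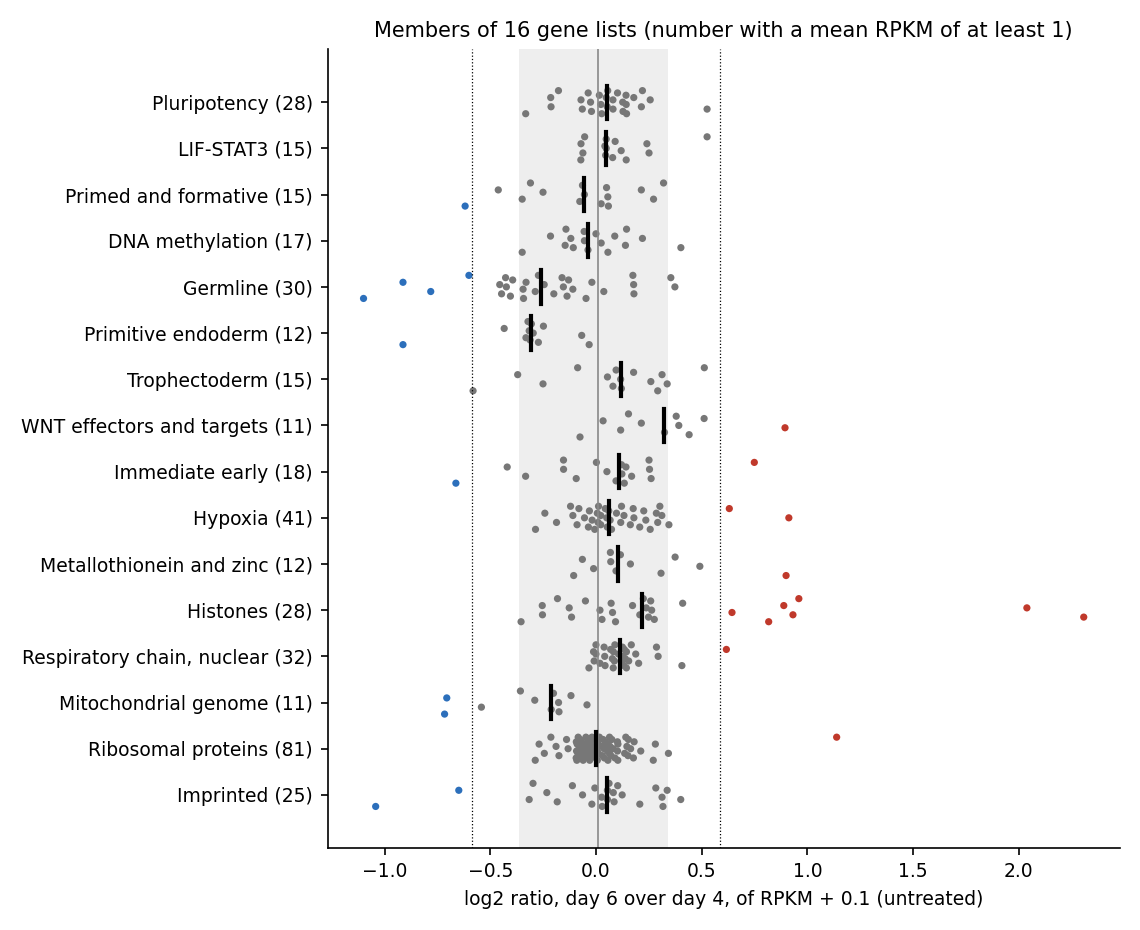
log2 ratios of day 6 over day 4 in untreated cells for the tested members of 16 gene lists, 1 point per gene, with the list median as a bar. The grey line is the median of all tested genes, the grey band holds the middle 90% of all tested genes (-0.37 to 0.34), dotted lines mark 1.5-fold, and red and blue points are past it. All primitive endoderm and mitochondrial genome points lie left of 0, and the histone points past the fold lie on the right.

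Most WNT effectors and targets had a ratio above 0. Of 11 tested genes 10 had a ratio above 0, while 47.4% of all tested genes were below 0. The median was 0.32, and 1 was past the fold (9.09%, beside 3.29% of all tested genes). Axin2, a scaffold of the β-catenin destruction complex and a feedback target of the pathway, had an RPKM of 1.60 on day 4 and 3.06 on day 6, 1.86-fold higher (0.89 ± 0.23). The nickel groups were flatter: from 2.71 to 3.18, from 2.59 to 2.79 and from 2.54 to 2.93 at 100, 150 and 200 µM. The day 4 control was thus the lowest of the 8 groups. Cyclin D1 (Ccnd1) was at 20.1 and 28.7 (0.51 ± 0.11), with ratios of 0.27, 0.35 and 0.33 in nickel. Tcf7, a DNA-binding partner of β-catenin, was at 25.3 and 25.9 (0.03 ± 0.11). The secreted WNT deacylase gene Notum was at 7.74 and 10.1 (0.38 ± 0.20). Porcn, which encodes the acyltransferase that WNT ligands need for secretion, was at 8.04 and 12.2 (0.60 ± 0.17). In nickel its ratio was 0.40, 0.55 and -0.04. The median of the 11 listed genes was 0.13, 0.13 and 0.20 in nickel.

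Immediate early genes split. Of 18 tested genes 1 was past the fold on each side (11.1% in all, beside 3.29% of all tested genes), and the median was 0.11. Ier3, an early response gene induced by growth factors, was at 3.91 on day 4 and 6.64 on day 6 (0.75 ± 0.30). Fos, a subunit of AP-1, was at 3.43 and 2.13 (-0.66 ± 0.30). The FGF-ERK feedback list had 1 of 17 tested genes past the fold (5.88%), Phlda1 at 1.22 and 2.12 (0.75 ± 0.33), and a median of -0.01. Its ligand Fgf4 was at 79.6 and 78.2 (-0.03 ± 0.08) and the ERK target Etv5 at 99.0 and 106 (0.10 ± 0.07). Ier3 and Phlda1 shared a pattern with Axin2: their day 4 control was the lowest of the 8 groups. At 100, 150 and 200 µM the ratios were 0.22, -0.04 and 0.08 for Ier3 and 0.09, -0.45 and 0.10 for Phlda1.

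Among hypoxia genes 2 of 41 tested were past the fold (4.88%, beside 3.29% of all tested genes), both higher, while the list's median was 0.06. Bhlhe40, a basic helix-loop-helix repressor induced by low oxygen and part of the circadian clock (chr6:108660629-108666925, GRCm38, plus strand), had an RPKM of 8.40 on day 4 and 15.9 on day 6, 1.88-fold higher (0.91 ± 0.14). It went from 7.54 to 14.5 at 100 µM nickel, from 6.46 to 11.9 at 150 µM and from 5.97 to 12.5 at 200 µM. All 4 day 6 groups lay above all 4 day 4 groups, with ratios of 0.93, 0.87 and 1.05 in nickel. Egln3, a prolyl hydroxylase that marks HIF for destruction and is itself a HIF target, was at 8.36 and 13.0 (0.63 ± 0.15). Its ratios in nickel were 0.53, 0.02 and 0.52. Other HIF targets were not past the fold, such as the glycolytic genes Aldoa at 904 and 1080 (0.26 ± 0.08) and Gapdh at 1530 and 1610 (0.07 ± 0.09). On the glycolysis list 0 of 25 genes were past the fold (median 0.05). On the circadian list Bhlhe40 was alone past the fold among 13 tested genes (7.69%), and the clock repressors Cry1 and Cry2 had ratios of 0.08 ± 0.12 and 0.15 ± 0.14.

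The 3 metallothionein genes above the filter all had a ratio above 0, and 1 was past the fold. Metallothioneins are small cysteine-rich proteins that bind zinc, copper and other metals, and their genes are switched on by the zinc-sensing factor MTF1 through metal response elements. Mt2 had an RPKM of 229 on day 4 and 322 on day 6 (log2 ratio 0.49 ± 0.11), and Mt1 had 118 and 153 (0.37 ± 0.11), both under the 1.5-fold rule. Mt3, the weakly expressed brain-type gene, was past it at 2.35 and 4.47 (0.90 ± 0.60), although within 2 implied errors. In nickel Mt2 went from 202 to 352, from 206 to 363 and from 282 to 475 at 100, 150 and 200 µM, and Mt1 from 96.4 to 163, from 101 to 152 and from 135 to 214. For Mt2 every day 6 group lay above every day 4 group, and the ratios of 0.80, 0.82 and 0.75 in nickel exceeded that of untreated cells. Mtf1 was at 3.43 and 3.67 (0.09 ± 0.15), and the zinc exporter gene Slc30a1, another MTF1 target, at 5.67 and 6.36 (0.16 ± 0.15). Over the list of 12 tested metallothionein and zinc genes 1 was past the fold (8.33%, beside 3.29% of all tested genes) and the median was 0.11. The 3 genes lie near each other on chromosome 8, and their promoters are shown because the 3 genes had ratios above 0 together. Each runs from 250 bases before to 50 after the start of the gene, from RefSeq on GRCm38.p6, plus strand, at chr8:94178839-94179138 for Mt1, chr8:94172368-94172667 for Mt2 and chr8:94152357-94152656 for Mt3. Capitals mark matches, on either strand, to the core of the metal response element, TGCACNC or TGCGCNC.
Mt1: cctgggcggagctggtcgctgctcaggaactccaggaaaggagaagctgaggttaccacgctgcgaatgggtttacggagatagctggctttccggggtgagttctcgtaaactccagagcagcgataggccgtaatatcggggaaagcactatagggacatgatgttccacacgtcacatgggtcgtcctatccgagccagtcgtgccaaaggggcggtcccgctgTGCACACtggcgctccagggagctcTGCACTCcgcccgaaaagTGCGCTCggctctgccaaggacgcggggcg
Mt2: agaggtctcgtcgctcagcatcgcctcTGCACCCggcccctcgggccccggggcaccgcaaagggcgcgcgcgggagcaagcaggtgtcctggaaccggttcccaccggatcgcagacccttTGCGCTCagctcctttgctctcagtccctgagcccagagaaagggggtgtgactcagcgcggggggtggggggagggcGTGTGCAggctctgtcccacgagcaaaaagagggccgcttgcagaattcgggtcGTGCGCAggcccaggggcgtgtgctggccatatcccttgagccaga
Mt3: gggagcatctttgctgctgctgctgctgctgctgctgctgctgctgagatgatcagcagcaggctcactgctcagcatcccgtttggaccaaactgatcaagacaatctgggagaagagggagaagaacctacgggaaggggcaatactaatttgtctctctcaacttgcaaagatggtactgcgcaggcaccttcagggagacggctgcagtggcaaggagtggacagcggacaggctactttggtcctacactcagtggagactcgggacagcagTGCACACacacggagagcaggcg
Mt1 held 3 matches, all on the plus strand, Mt2 held 4, with 2 on each strand, and Mt3 held 1. Of 32851 promoters of this length in the RefSeq table, 25.7% held at least 1 match, 1.97% at least 3 and 0.517% at least 4. A match is a description of the letters and not a site of binding.

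The row of the ribosomal RNA precursor, Rn45s, was 2.99-fold higher on day 6, at an RPKM of 294 on day 4 and 879 on day 6 (1.58 ± 0.26). In nickel it went from 360 to 770, from 478 to 1510 and from 499 to 1030 at 100, 150 and 200 µM, so all 4 day 6 groups lay above all 4 day 4 groups. Lars2, which encodes the mitochondrial leucyl-tRNA synthetase, was 4.6-fold higher, at 49.7 and 229 (2.20 ± 0.34). Its values in nickel were 58.5 and 202, 62.1 and 201, and 67.9 and 236, with ratios of 1.79, 1.69 and 1.80. On the list of other aminoacyl-tRNA synthetase genes 0 of 19 tested were past the fold, and their ratios lay between -0.11 and 0.07. The microRNA rows Mir6236 and Mir6240 were also higher on day 6 in all 4 pairs, in untreated cells at 34.4 and 113 (1.71 ± 0.30) and at 0.996 and 4.71 (2.13 ± 1.45). Libraries were selected for poly(A) RNA, so the level of ribosomal RNA in them depends on how much was carried over. The share of each library taken by ribosomal RNA was not measured here, and its part in these 4 rows was not tested. Ribosomal protein genes were level: of 81 tested, 1 was past the fold (1.23%, beside 3.29% of all tested genes) and the median was 0.00. That gene was Rpl30, at 153 and 337 (1.14 ± 0.89), whose span overlaps other genes of its strand and whose ratios in nickel were 0.91, -0.11 and -1.33.

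**Figure D3:**
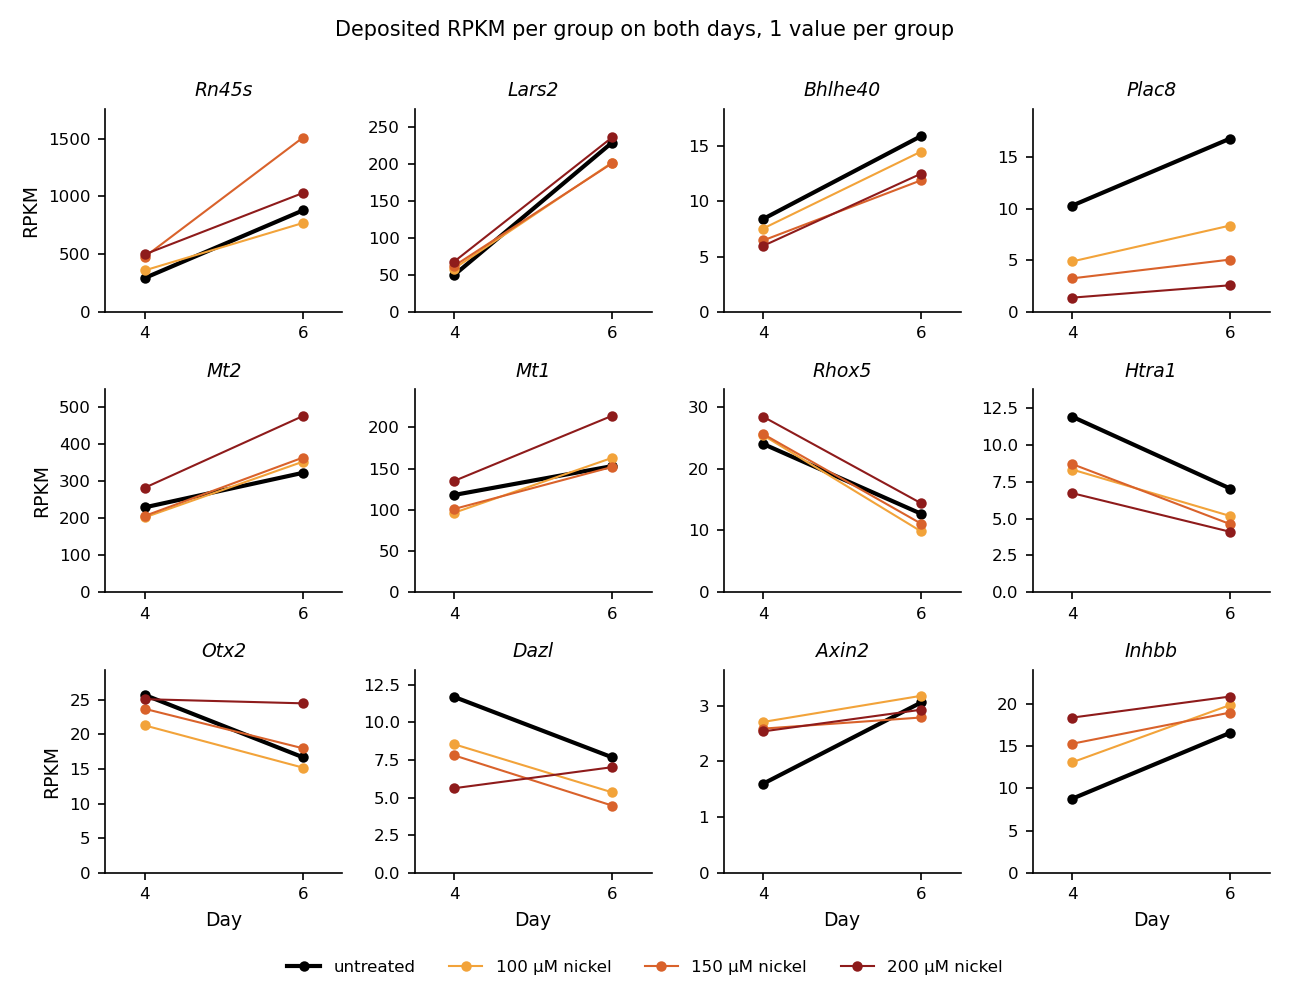
Deposited RPKM on day 4 and day 6 (x axis) of 12 genes in untreated cells (black) and in cells given 100, 150 or 200 µM nickel (yellow to dark red). Each point is 1 group value without an error bar, and each axis starts at 0. Rn45s, Lars2, Bhlhe40, Plac8, Mt1, Mt2, Inhbb and Axin2 have a larger value on day 6 in all 4 pairs. Rhox5, Htra1 and Otx2 have a smaller value in all 4, with Otx2 almost flat at 200 µM. The Axin2 step is largest in untreated cells.

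Of 11 tested protein-coding genes of the mitochondrial genome 2 were past the fold, both lower (18.2%, beside 1.86% of all tested genes). All 11 had a ratio below 0, beside 47.4% of all tested genes, with a median of -0.21. The cytochrome oxidase subunit gene mt-Co1 was at an RPKM of 7360 on day 4 and 6520 on day 6 (-0.17 ± 0.07), and mt-Nd1, a complex I subunit gene, at 2780 and 2170 (-0.36 ± 0.13). The 2 past the fold, mt-Atp8 at 7.90 and 4.77 and mt-Atp6 at 4.63 and 2.80, overlap each other and, like mt-Co2 at 5.68 and 3.87 and mt-Co3 at 3.46 and 3.18, were far below the other 7 members, of which none was past the fold. In nickel the median of the list was -0.47, -0.11 and -0.36. Mitochondrial tRNA genes, a class taken after its values were seen, showed larger ratios: of 17 tested, 12 were past the fold, all lower, with a median of -0.67. For mt-Tn the values were 117 and 57.9 (-1.01 ± 0.35) and for mt-Ta 235 and 137 (-0.78 ± 0.23). At 100, 150 and 200 µM the median of these 17 genes was -0.31, 0.15 and -0.27, so the 150 µM pair went the other way. Short tRNAs are poorly captured by poly(A) selection, and the summed RPKM of the class was 1259 on day 4 and 847 on day 6. Of nuclear genes of the respiratory chain 27 of 32 were above 0, with a median of 0.11. Ndufab1, the acyl carrier subunit of complex I, was the 1 past the fold, at 38.5 and 59.1 (0.62 ± 0.17).

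Among histone genes 7 of 28 tested were past the fold, all higher, beside 1.43% of all tested genes, and the median was 0.22. The 7 were H4c1, H2bc12, H4c8, H4c18, H2bc11, H4c4 and H2bc8, members of the histone clusters, which encode the replication-coupled core histones. H4c1 was at an RPKM of 0.405 on day 4 and 2.40 on day 6 (2.31 ± 0.94), and H2bc12 at 0.601 and 2.78 (2.04 ± 0.78). For the remaining 5, at ratios of 0.64 to 0.96, the size was under 2 implied errors. The transcripts of these genes are short and end without a poly(A) tail, and only 15 of 57 such symbols passed the filter. Their median ratio was 0.41 in untreated cells and 0.47, -0.38 and 0.49 in nickel, with 14 of the 15 below 0 at 150 µM. The other 13 tested histone genes, linker histones such as H1f1 included, had a median of 0.09, and none was past the fold. Among them H2az1 was at 431 and 453 (0.07 ± 0.08) and H2ax at 300 and 306 (0.03 ± 0.09). Their median in nickel was 0.12, -0.28 and 0.11, with 12 of the 13 below 0 at 150 µM. DNA replication and mitosis genes had 0 of 28 and 0 of 24 past the fold, with medians of 0.02 and 0.08. Pcna, the replication clamp, was at 172 and 170, and Top2a at 181 and 187.

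Among imprinted genes 2 of 25 tested were past the fold (8%, beside 3.29% of all tested genes), both lower, and the median was 0.05. Usp29, a paternally expressed gene, was at 1.43 on day 4 and 0.643 on day 6 (-1.04 ± 0.27), and H19, the maternally expressed noncoding RNA, at 3.13 and 1.96 (-0.65 ± 0.30). Both spans overlap other genes on the same strand. The neighbours of these genes did not follow, with Igf2, next to H19, at 1.40 and 1.38 and Peg3, next to Usp29, at 5.12 and 5.32. From the epithelial-mesenchymal transition list 1 of 12 tested genes was past the fold (8.33%, median 0.14). It was Cldn7, a tight junction claudin, at 3.71 and 5.62 (0.59 ± 0.34), with ratios of 1.17, 0.53 and 0.69 in nickel. E-cadherin (Cdh1) was level at 92.2 and 94.6.

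Inhbb, on none of the lists, was past both 1.5-fold and 2 implied errors. It encodes the βB subunit of inhibins and activins, and had an RPKM of 8.78 on day 4 and 16.6 on day 6, 1.88-fold higher (0.91 ± 0.12, chr1:119415463-119422248, GRCm38, minus strand). In nickel it went from 13.1 to 19.9, from 15.3 to 19 and from 18.4 to 20.9, so the ratio was 0.60, 0.31 and 0.18 and the day 4 control was the lowest group. Akr1b3, the aldose reductase gene, was 2.91-fold higher at 3.78 and 11.2 (1.54 ± 0.27), in a span that overlaps another gene on its strand. Cdkn2b, which encodes the cell cycle inhibitor p15, was 2.74-fold lower at 2.91 and 1.00 (-1.45 ± 0.41), with ratios of -0.83, -1.26 and -0.36 in nickel. Matn1, a cartilage matrix protein gene, was 2.69-fold lower at 2.58 and 0.896 (-1.43 ± 0.37), with ratios of -0.52, -1.06 and -1.06 in nickel. The dynein light chain gene Dynlt1b was at 14.2 and 7.85 (-0.85 ± 0.24), with ratios of -1.01, -0.42 and -0.81. Apela, a peptide hormone gene of ES cells, was at 31.6 and 20.6 (-0.61 ± 0.16), and its ratios in nickel were -0.52, -0.71 and -0.33.

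The nickel groups, whose libraries are other than those of the controls, gave each gene 3 further day ratios. Of the 168 genes higher in untreated cells, 52, 34 and 35 were also 1.5-fold higher on day 6 at 100, 150 and 200 µM, which is 31.0%, 20.2% and 20.8% of them, beside 2.46%, 1.47% and 1.66% of all tested genes. Of the 218 lower genes, 63, 77 and 46 were also 1.5-fold lower, 28.9%, 35.3% and 21.1%, beside 1.38%, 3.28% and 1.41% of all tested genes. Most of these genes were weakly expressed, and such genes passed the fold more often, so all tested genes are not a matched background. By sign alone, 77.4%, 60.1% and 72.6% of the 168 were above 0 in nickel, beside 57.3%, 37.9% and 56.9% of all tested genes. Below 0 were 65.6%, 67.9% and 63.3% of the 218, beside 41.5%, 60.9% and 41.8% of all tested genes. The median ratio of the 168 was 0.36, 0.14 and 0.25 in nickel, and that of the 218 was -0.30, -0.35 and -0.18. All day 4 groups may share a harvest, and so may all day 6 groups, so these pairs are no check on the handling of a harvest.

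**Figure D4:**
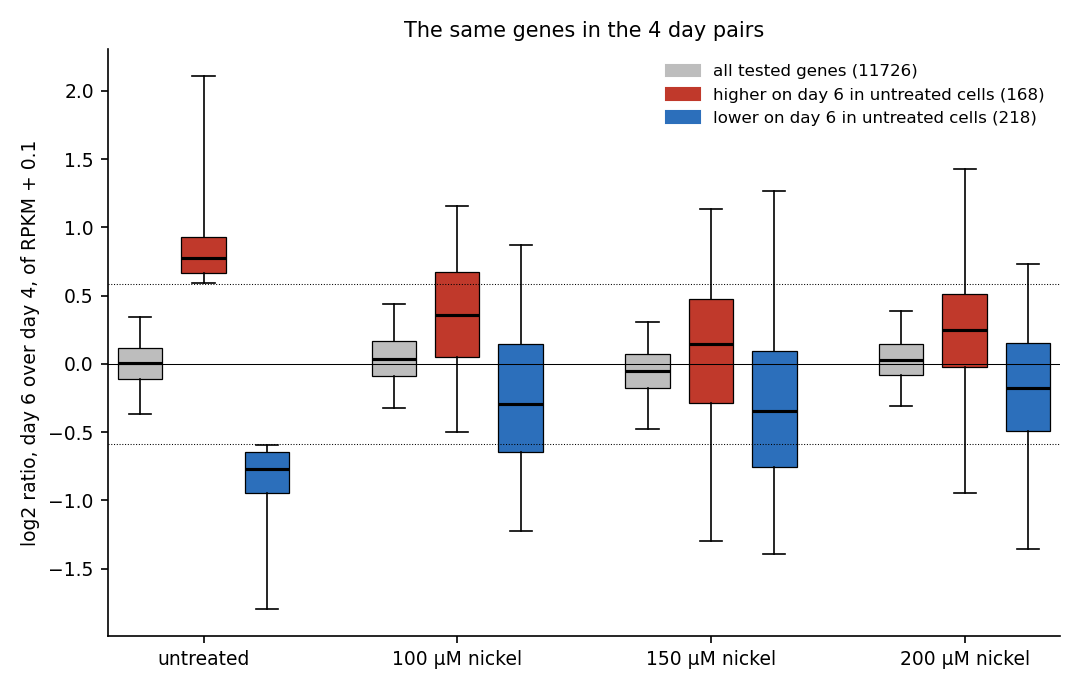
log2 ratios of day 6 over day 4 in each of the 4 day pairs for all 11726 tested genes (grey) and for the 168 genes higher (red) and 218 lower (blue) on day 6 in untreated cells. Boxes hold the middle 50% with the median as a line, whiskers run from the 5th to the 95th percentile, and dotted lines mark 1.5-fold. The untreated boxes were set by the choice of genes, and in nickel the red medians lie above 0 and the blue medians below 0 at all 3 doses.

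Past the fold in the same direction in all 4 pairs were 8 higher genes (0.0682%) and 13 lower genes (0.111%). The 8 higher were Rn45s, Lars2, Mir6236, Mir6240, Bhlhe40, Plac8, 1500009C09Rik and Rplp2-ps1. Plac8, which encodes a small cysteine-rich protein first found in placenta, was at 10.3 on day 4 and 16.8 on day 6 (0.70 ± 0.29) and at lower levels in nickel, from 1.38 to 2.58 at 200 µM. The lower genes with assigned names were Rhox5, Htra1, Rec114, Tsx, Ano3, Lst1, Ms4a10 and Snord19, beside 5 predicted genes. Htra1, a secreted serine protease gene, was at 11.9 and 7.03 (-0.75 ± 0.19), and in nickel it went from 8.32 to 5.17, from 8.69 to 4.62 and from 6.72 to 4.10. Rec114, part of the machinery that makes meiotic DNA breaks, was at 17.8 and 11.6 (-0.61 ± 0.23), and at 100, 150 and 200 µM its ratio was -0.72, -1.55 and -0.69. Tsx, a gene of the X inactivation centre, was at 4.89 and 3.15 (-0.62 ± 0.44).

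Several of the largest ratios sit in rows with few or uncertain reads. Rsc1a1 went from 0.464 to 6.25 (3.49 ± 0.55), Moap1 from 3.64 to 0.957 (-1.82 ± 0.33), Eif3j1 from 3.81 to 1.03 (-1.79 ± 0.34) and the protocadherin Pcdhga5 from 2.47 to 0.0838 (-3.81 ± 0.71). Each overlaps another gene on the same strand, and none had a ratio past the fold in the same direction in all 3 nickel pairs. Mir5121 was at 7.48 and 158 in untreated cells, and went from 9.91 to 14.6, from 345 to 175 and from 12.4 to 423 in the 3 nickel pairs, so the 150 µM pair went the other way. Over all microRNA rows, 14 of 54 tested were higher and 14 lower, beside 1.43% and 1.86% of all tested genes. Their median implied error was 1.41. These rows are given as measured and carry no weight for single genes.

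Whether the day ratio differed between nickel and untreated cells was put to a z test (two-sided) on the authors' log2 fold change of day 6 minus that of day 4, with Benjamini-Hochberg adjustment over all genes. At 100, 150 and 200 µM, 7, 14 and 9 genes passed an adjusted p of 0.05 (0.0374%, 0.0745% and 0.0476%). With no adjustment 560, 591 and 369 genes had a p under 0.05, where 937, 939 and 944 would by chance. These counts cover 18734, 18784 and 18889 genes, many of them below the RPKM filter, so they do not vouch for single calls. Of these 30 calls, 19 were in genes that share a span with another gene of their strand. Fos, which shares no span with a gene of its strand, was among the 30 calls at both lower doses. It was lower on day 6 in untreated cells (3.43 and 2.13) but higher with 100 µM (from 1.88 to 4.02) and with 150 µM (from 1.60 to 5.02). The difference of its day ratios from that of untreated cells was 1.75 ± 0.39 at 100 µM (adjusted p = 0.0272, z test) and 2.39 ± 0.41 at 150 µM (adjusted p = 4.0e-05, z test). At 200 µM it was level at 0.982 and 0.969. For Axin2, Inhbb, Otx2, Ier3 and Phlda1 the difference did not pass at any dose. Nor did it for Rhox5, Bhlhe40, Mt1, Mt2, Rn45s and Lars2.

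Most other pathways had no member past the fold. There were 0 of 34 tested ATF4 targets (median 0.03), 0 of 25 cholesterol genes (-0.05), 0 of 20 heat shock genes (-0.02), 0 of 22 endoplasmic reticulum chaperones (-0.01) and 0 of 23 p53 targets (-0.05). The same held for 0 of 21 NRF2 and antioxidant genes (0.05), 0 of 11 iron genes (-0.10), 0 of 22 Polycomb genes (0.04), 0 of 20 genes of H3K9 repression (-0.02), 0 of 14 interferon genes (-0.09), 0 of 14 YAP targets (0.06) and 0 of 13 BMP and Id genes (0.03). Highly expressed members stayed close, such as the chaperone gene Hsp90ab1 at 2430 and 2450, the ferritin gene Fth1 at 396 and 414, and Trp53 at 168 and 194 (0.21 ± 0.08). Over all lists, 31 of 790 distinct tested members were past the fold, 19 higher and 12 lower, or 3.92% beside 3.29% of all tested genes. Of 58 protocadherin genes 6 passed the filter, and only Pcdhga5, described above, was past the fold (median -0.09).

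Among the marker lists, liver had the largest fall in genes listed at 0. Of 30 liver markers, 15 were listed at 0 in the day 4 control and 2 in the day 6 control. Zeros were also fewer on day 6 in other lists: 26 and 7 of 58 protocadherin genes, 16 and 9 of 39 Hox genes and 7 and 3 of 27 neural genes. For histone genes they were 25 and 28 of 103. The day 6 control libraries were deeper, and the part of depth in these zeros was not tested. The 25 markers with a mean RPKM under 1 summed to an RPKM of 1.40 on day 4 and 6.09 on day 6. Albumin (Alb), the defining plasma protein of hepatocytes, was listed at 0 on day 4 and was at 1.97 on day 6. Haptoglobin (Hp) was at 0 and 0.340, hemopexin (Hpx) at 0.158 and 0.600 and transthyretin (Ttr) at 0.0240 and 0.243, while the liver urea cycle gene Cps1 was level at 0.343 and 0.327. The 100 µM groups gave the same picture, with Alb at 0 and 1.89, 15 and 1 markers at 0 and sums of 1.16 and 6.01. The higher doses did not: at 150 µM Alb was at 0 on both days, and at 200 µM at 0 and 0.0221, with sums of 1.66 and 1.45 and of 1.42 and 1.38. The day 6 control and the 100 µM day 6 group therefore stand apart from the other 6 groups in these genes. Their part in the day comparison was not tested. Among the 5 markers above the filter only transferrin (Trf) was past the fold (20%, beside 3.29% of all tested genes). Trf was at 2.96 and 4.69 (0.65 ± 0.25), with ratios of 1.02, 0.05 and 0.20 at 100, 150 and 200 µM.

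**Figure D5:**
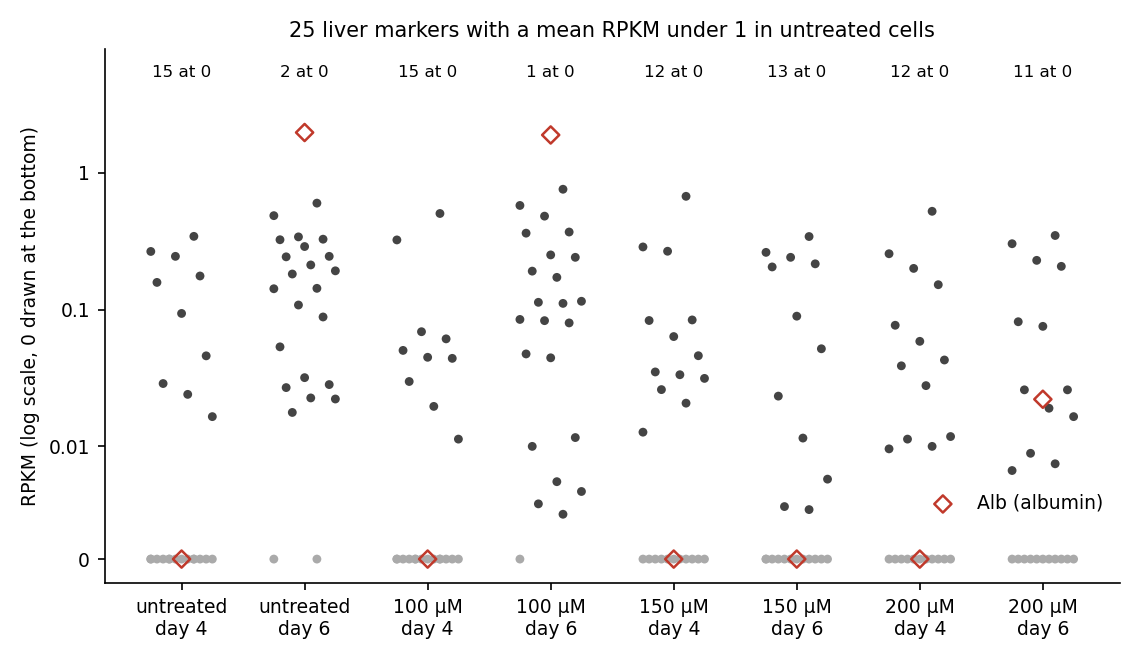
RPKM (log scale) of the 25 liver markers with a mean RPKM under 1 in untreated cells, in the 8 groups of dose and day. Each point is 1 gene, grey points at the bottom are listed at 0 and counted above each group, and the red diamond is Alb. The day 6 control has 2 markers at 0 and the 100 µM day 6 group has 1, against 11 to 15 in the other 6 groups.

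Markers of other cell types were mostly low or level, though some low ones also differed between the days. Fibroblast markers had 1 of 4 tested genes past the fold (25%, beside 3.29% of all tested genes), Tagln at 1.30 and 2.53 (0.91 ± 0.41). The summed level of the 14 markers was 24.4 and 21.4, Col1a2 was at 0.0543 and 0.0442, and Lum, Postn and Twist2 were listed at 0 on both days. Immune markers also had 1 of 4 tested genes past the fold (25%, beside 3.29%), Cd79a at 2.53 and 1.15 (-1.07 ± 0.45). Their summed level was 23.1 and 18.1, and the pan-leukocyte gene Ptprc was at 0.0358 and 0.00328. No blood marker passed the filter, and the summed level of the 13 markers was 0.359 and 0.294, with the adult globin genes Hbb-bs and Hbb-bt listed at 0 on both days. Muscle, pancreas and gut, and endothelial markers each had 3 tested genes and 0 past the fold. Their summed levels were 76.9 and 69.1, 5.44 and 4.46, and 37.2 and 36.6 on days 4 and 6. Below the filter, 3 pancreas genes were lower on day 6, Cpb1 at 0.31 and 0.0047, Ctrb1 at 0.316 and 0.0559 and Cpa1 at 0.157 and 0.0108. Pnlip went the other way, at 0.16 and 0.217.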

How the data were processed

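E14Tg2A cells were sequenced without nickel and at 100, 150 and 200 µM on days 4 and 6, with 2 libraries per group. Reads were processed with STAR and DESeq2 on GRCm38, per the submitters' processing notes, with no versions stated in the sources used here. The authors' deposited tables, 6 of 26239 genes, give per the file headers 1 RPKM per group, a log2 fold change of nickel against control, its p-value and its adjusted p-value. The control values were the same in the tables of all doses.

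From these, day ratios were computed as log2 of RPKM + 0.1 for genes with a mean RPKM of at least 1, and a size of 1.5-fold counted as past the fold. The implied error of a log2 fold change is its size over the normal quantile of its p-value, the median over doses, joined over both days. Where the day ratio of nickel was set against that of untreated cells, the z test used the authors' log2 fold changes of both days and Benjamini-Hochberg adjustment. Depth was estimated from the steps of low RPKM values, where a value within 0.8% of a step counted as on it. On steps were 95.2% of these values in the day 4 control and 90.2% in the day 6 control. No error of the depth was computed. Overlaps were read from the deposited coordinates. Steps were tested on simulated data. Python 3.11.15, numpy 2.4.6, pandas 2.3.3 and scipy 1.17.1 were used.

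The members and the 50 gene lists were chosen with earlier results of these data known. Named genes were the 15 largest ratios each way, the 8 largest each way at a mean RPKM of at least 10, up to 4 members past the fold and the 2 most expressed others of each list, and 15 set genes, leaving out predicted genes. Alternatives were the pseudocount, filters, fold, scaling and the exclusion of uncertain rows.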

Additional observations from a re-analysis of the deposited data

Results flagged for a closer look

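The day ratio in nickel differed from that in untreated cells, by the z test of the difference with adjustment over all genes, 30 times over the 3 doses, and 22 of these are given here, each as the log2 difference of nickel minus untreated with its standard error. For Fos, the AP-1 subunit, it was 1.75 ± 0.39 at 100 µM (adjusted p = 0.0272) and 2.39 ± 0.41 at 150 µM (adjusted p = 4.0e-05). For mt-Rnr2, the large mitochondrial ribosomal RNA, it was 0.72 ± 0.12 at 100 µM (adjusted p = 8.2e-06) and 1.36 ± 0.27 at 150 µM (adjusted p = 0.0012). Its RPKM went from 306 on day 4 to 210 on day 6 in untreated cells, from 239 to 275 at 100 µM and from 202 to 342 at 150 µM.

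At 150 µM the difference was -0.50 ± 0.11 for the MAP kinase phosphatase gene Dusp9 (adjusted p = 0.0086), with an RPKM of 49.0 and 64.6 in untreated cells and 82.2 and 74.1 in nickel. It was -0.74 ± 0.18 for Khdc3, a maternal effect gene (adjusted p = 0.0369), at 30.2 and 34.1 against 20.5 and 13.5. For Pcsk1n, an inhibitor of a prohormone convertase, it was -1.32 ± 0.30 (adjusted p = 0.0154), at 6.74 and 7.35 against 7.08 and 2.99. For Trh, the thyrotropin-releasing hormone gene, it was 0.44 ± 0.10 (adjusted p = 0.0306), at 270 and 206 against 115 on both days.

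Other genes overlap a neighbour, Rsc1a1, Pcdhga5 and Moap1 on their own strand and E130218I03Rik on the other, so their reads are uncertain. Rsc1a1 differed by -4.34 ± 0.93 at 100 µM (adjusted p = 0.0110) and -5.09 ± 0.73 at 200 µM (adjusted p = 1.6e-08). Pcdhga5 differed by 6.16 ± 1.31 at 150 µM (adjusted p = 0.0049) and 4.69 ± 0.91 at 200 µM (adjusted p = 6.3e-04). At 200 µM Moap1 differed by 2.57 ± 0.47 (adjusted p = 1.2e-04), and the predicted gene E130218I03Rik by -5.48 ± 0.75 (adjusted p = 1.7e-09), at 0.263 and 2.98 in untreated cells against 6.16 and 1.57.

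Reads can also be split between overlapping or near-identical copies in the following rows. At 200 µM the ribosomal protein gene Rps27 differed by 5.08 ± 0.18 (adjusted p = 2.1e-175), at an RPKM of 706 and 852 in untreated cells against 14.2 and 810 in nickel, while its near copy Rps27rt differed by -1.21 ± 0.16 (adjusted p = 1.3e-09), at 701 and 847 against 1500 and 805. Gm20604 differed by -1.32 ± 0.26 at 100 µM (adjusted p = 0.0019), -1.21 ± 0.25 at 150 µM (adjusted p = 0.0045) and -1.56 ± 0.28 at 200 µM (adjusted p = 8.6e-05), at 3.38 and 7.17 in untreated cells. D7Ertd143e differed by 0.71 ± 0.14 at 100 µM (adjusted p = 0.0021) and 0.88 ± 0.15 at 150 µM (adjusted p = 6.6e-05), at 27.0 and 20.0 in untreated cells. Epha4, an ephrin receptor gene, differed by -0.73 ± 0.14 at 150 µM (adjusted p = 0.0011), at 21 and 22 against 17.5 and 10.8. The remaining 8 calls, such as Sv2b, were in genes not named by the fixed rule, with an RPKM under 1 in at least 1 of the 4 groups compared. Each also overlapped a neighbour on its strand or had a mean RPKM under 1 in untreated cells. Their fold changes are not given.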

How the results depend on the processing

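No paired analysis was possible because the tables hold 1 value per group, and leaving out a replicate could not be run for the same reason. The count of genes past the fold, 386, came to 171 with a pseudocount of 1, to 2332 of 19733 genes with no filter, to 79 at a mean RPKM of at least 5, to 78 at 2-fold and to 161 with the added demand of 2 implied errors. It was 412 with a pseudocount of 0.01. Scaling moved little: 386 genes (162 higher, 224 lower) with ratios centred on their median and 383 (156 and 227) with ratios scaled to equal sums. The median over all tested genes, 0.01, turned to -0.01 with equal sums, and 2 list medians near 0 (aminoacyl-tRNA synthetases and endothelial markers) turned with it. With alternatives chosen after seeing the data, 278 genes were past the fold without small RNA genes and same-strand overlaps, and 293 among genes with at least 100 estimated reads in the day with more reads. That setting also leaves out the 31 genes past the fold that have no transcript length. Of the 31 list members past the fold, 18 were past it with a pseudocount of 1 and 20 with 2 implied errors, and the split of 19 higher and 12 lower became 12 and 12 with the demand on reads, which drops the histone genes for want of a length. The number of genes past the fold in all 4 day pairs, 21, was 17 without small RNA genes and overlaps. The sign of a named gene past the fold is no check of these settings. A pseudocount added to both days cannot turn a sign, and equal sums shifted ratios by only about -0.015. Depth limits the weakest rows: of the 355 genes past the fold with a length, 96 had fewer than 100 estimated reads on at least 1 day and 62 on both.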
